A study of Mus musculus with 20 samples.

Results

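Meiosis II spermatocytes of WT mice were compared with those of Cxxc1-null mice, in 2 libraries per genotype. The genes described reached 1 FPKM in 2 or more of these 4 libraries, as did 11799 of the 23235 genes in the deposited table. FPKM is a transcript level, sequenced fragments scaled by the length of the transcript and by the total of the library. The series measured RNA in pachytene, diplotene and meiosis II cells of both genotypes, in 12 libraries. All mice were adult males on a C57BL/6 background, and both groups differed by the labels only in the genotype of Cxxc1. Each library came from 500 cells sorted by flow cytometry and was made by Smart-seq2, a full-length cDNA method that primes at poly(A) tails. The cell type or promoter in which Cxxc1 was deleted, and the deleted part of the gene, are not given in the sources used here. Whether the 2 libraries of each genotype are from different animals is not stated in the labels. The p-values of the main fit rest on the scatter within groups pooled over all 12 libraries, and that scatter can be purely technical.

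CXXC1 (also called CFP1) has a CXXC zinc finger that binds unmethylated CpG dinucleotides and is a subunit of the SETD1 complexes, which place trimethylation on lysine 4 of histone H3 (H3K4me3) at CpG-rich promoters. In male meiosis, spermatocytes pass a long prophase (pachytene and diplotene), then divide, and the secondary spermatocytes that result divide again without copying their DNA to give haploid round spermatids. The sex chromosomes are silenced in pachytene, and part of that silencing persists afterwards. Spermatids later replace most histones by transition proteins and then protamines, whose mRNAs are made early and stored.

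Between 10955 and 11624 genes reached 1 FPKM in each of the 4 libraries. Correlations were taken across the 12956 genes that reached 1 FPKM in 2 or more of the 12 libraries. On the log2(FPKM + 1) scale r was 0.972 between the WT libraries and 0.973 between the Cxxc1-null libraries. It was 0.941 to 0.953 between genotypes. These are correlations across genes, which are not replicates. The deleted gene itself was at 12.5 and 12.8 FPKM in WT and at 3.10 and 2.02 FPKM in Cxxc1-null libraries. Markers of other cells were present in both genotypes. The 16 markers of round and elongating spermatids, all of them members, summed to 8067 and 11128 FPKM in the WT libraries and to 2554 and 5212 FPKM in the Cxxc1-null libraries, against 199 to 2260 FPKM in the pachytene and diplotene libraries. Of 14 Sertoli cell markers 11 were members and the list summed to 428 and 340 FPKM in WT and to 310 and 325 FPKM in Cxxc1-null, against 10.9 to 71.2 at the other stages, mostly from Clu. The 9 Leydig markers summed to 302 and 55.7 FPKM in WT and to 129 and 208 FPKM in Cxxc1-null, and the 16 markers of peritubular, endothelial and blood cells to 44.3, 6.38, 10.5 and 9.03 FPKM, with the globin genes Hba-a1 and Hba-a2 listed at 0 in all 4 libraries. The 15 markers of leptotene to pachytene cells were at 1418 and 1384 FPKM in WT and at 1491 and 1711 FPKM in Cxxc1-null. In bulk libraries fewer cells of a type and less RNA per cell cannot be told apart. The part of the spermatid signal, which did not overlap between genotypes, in the differences below was not tested.

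Meiosis II cells without Cxxc1 had higher levels of 782 members and lower levels of 555. The test was limma's moderated test on log2(FPKM + 1), with 1 fit of all 12 libraries and Benjamini-Hochberg adjustment over the 12956 genes that reached 1 FPKM in 2 or more libraries of any stage, called at an adjusted p under 0.05. The calls are 6.63% of members higher and 4.7% lower, and 10462 members were not called. At an unadjusted p under 0.05 there were 3289 members. Members called higher had a median FPKM of 1.86 in WT and of 5.98 in Cxxc1-null cells, and those called lower of 10.7 in WT and of 3.37 in Cxxc1-null cells. These medians include members that the 1 FPKM filter let in through 1 genotype. Over called members at 1 FPKM or more in all 4 libraries, the medians were 4.89 and 13.5 FPKM for the 463 higher and 13.7 and 4.90 FPKM for the 433 lower. On the log2 scale the change was at least 1, a doubling or halving of FPKM + 1, for 465 of the higher and 359 of the lower members, and at least 2 for 36 and 27. The median difference over all members was 0.02. In 30.6% of members both Cxxc1-null libraries lay above both WT libraries, and in 27% both lay below; all called members were among these. Of the calls 58.5% were higher, a share that was 69.8% with a common median over libraries, which moved the median of all members to 0.13, and 71.8% without WT replicate 1 and 50.3% without WT replicate 2. An exact permutation test of 2 libraries against 2 cannot give a p below 0.333.

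The filter itself fixes a direction for some members. Only the Cxxc1-null libraries brought 415 members over 1 FPKM, of which 254 were called higher, and only the WT libraries brought 228, of which 85 were called lower. Among the 10157 members above 1 FPKM in all 4 libraries, 463 were called higher and 433 lower. The balance of directions in the whole count therefore includes genes that entered through 1 genotype. At the edge of the filter, 239 members had a second-highest value of 1 to 1.1 FPKM, and 238 genes just outside had 0.9 to 1 FPKM. The number of calls rested on each library. Leaving out WT replicate 1 or 2 gave 400 or 582 calls, leaving out Cxxc1-null replicate 1 or 2 gave 546 or 419, and 218 remained when the 4 libraries were fitted alone. Of the 1337 called members, 261 stayed called whichever of the 4 libraries was left out, and 543 were lost in all 4 such fits. All 1337 kept their direction in these fits, which was fixed in advance, because no called member overlapped between genotypes.

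**Figure D1:**
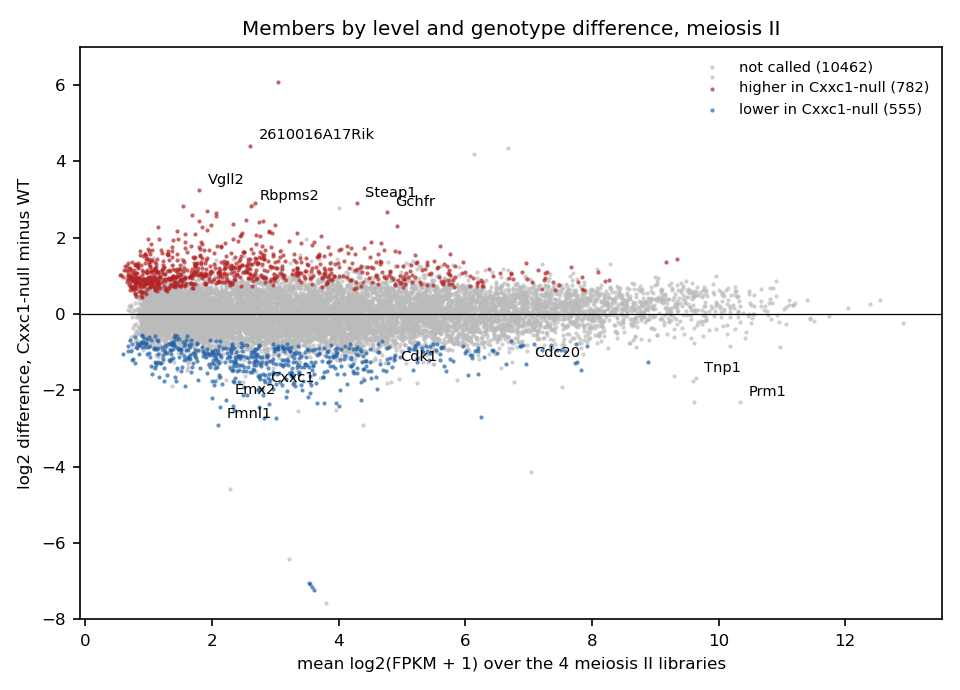
Each point is 1 of the 11799 members. The horizontal axis is the mean log2(FPKM + 1) over the 4 meiosis II libraries and the vertical axis is the log2 difference, Cxxc1-null minus WT. Red points are the 782 members called higher and blue points the 555 called lower. The red points crowd at low levels, and 254 of them passed the 1 FPKM filter only through the Cxxc1-null libraries; the highly expressed protamine and transition protein genes Prm1 and Tnp1 lie low without being called.

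Several of the largest rises were of genes nearly silent in WT meiosis II cells. Vgll2, a cofactor of TEAD transcription factors best known in skeletal muscle, was listed at 0 and at 0.265 FPKM in WT and was at 13.0 and 7.21 FPKM in Cxxc1-null libraries. Its difference was 3.25 ± 0.36 on the log2(FPKM + 1) scale (± standard error, limma adjusted p = 0.0015). Lor, which encodes loricrin of the epidermal cornified envelope, was at 0.683 and 0.678 FPKM in WT and at 13.0 and 6.84 FPKM in Cxxc1-null. Gkn2, a gastrokine of the stomach lining, was at 0.125 and 0.932 FPKM against 8.38 and 8.92 FPKM. These genes, and Asprv1 and Hand2 below, were under 1 FPKM in both WT libraries and entered only through the Cxxc1-null libraries, so that their separation follows in part from the choice of members. Asprv1, a skin aspartic protease, was likewise at 0.649 and 0.352 FPKM in WT and at 5.24 and 9.57 FPKM in Cxxc1-null, a difference of 2.44 ± 0.34.

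Gata6 and Hand2 encode developmental transcription factors, and both rose. Gata6, a zinc finger factor of endoderm, heart and gonadal somatic cells, was at 2.30 and 2.86 FPKM in WT and at 13.8 and 20.8 FPKM in Cxxc1-null libraries (2.33 ± 0.26, limma adjusted p = 0.0015). Hand2, a basic helix-loop-helix factor of heart and limb, was at 0.106 and 0.164 FPKM in WT and at 2.60 and 2.56 FPKM in Cxxc1-null, 1 of the 10 smallest p-values among the members (limma adjusted p = 0.000955). Both were still called when any 1 of the 4 libraries was left out. The Sertoli marker Dhh, which encodes a hedgehog ligand, rose as well, from 4.64 and 6.89 FPKM to 12.6 and 16.4 FPKM, a call lost without WT replicate 1 or Cxxc1-null replicate 2, while the other Sertoli markers were not called and Clu was at 228 and 178 FPKM in WT and at 169 and 166 FPKM in Cxxc1-null. The part of somatic cells in the values of Gata6 was not tested. Emx2, a homeobox gene, went the other way, from 9.92 and 8.51 FPKM in WT to 1.31 and 0.967 FPKM in Cxxc1-null (-2.26 ± 0.24, limma adjusted p = 0.0013).

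Gchfr and Steap1 rose from a measurable WT level. Gchfr, the feedback regulator of GTP cyclohydrolase 1 in tetrahydrobiopterin synthesis, was at 10.6 and 8.96 FPKM in WT and at 55.3 and 83.4 FPKM in Cxxc1-null libraries (2.68 ± 0.27, limma adjusted p = 0.0011). Steap1, a metalloreductase family gene, was at 4.82 and 7.72 FPKM against 44.8 and 60.7 FPKM. The lowest Cxxc1-null value of each was more than the highest WT value by several-fold. The sulfotransferase gene Sult5a1 was at 1.35 and 2.58 FPKM in WT and at 10.6 and 19.5 FPKM in Cxxc1-null, and its call was lost on leaving out WT replicate 1 or Cxxc1-null replicate 2, with limma adjusted p-values up to 0.0544. The organic anion transporter gene Slco1a6 was at 0.828 and 0.437 FPKM in WT and at 6.61 and 7.19 FPKM in Cxxc1-null. It entered only through the Cxxc1-null libraries, so its separation follows in part from the choice of members. The mitochondrial carrier gene Slc25a14 on the X was at 2.29 and 2.49 FPKM in WT and at 12.5 and 8.08 FPKM in Cxxc1-null. Fkbp10, a prolyl isomerase of the endoplasmic reticulum, rose from 1.05 and 1.39 FPKM to 9.71 and 11.2 FPKM. Of the 15 named genes with the largest rises, not all stayed called when 1 library was left out, and Ccdc152 was lost in every such fit. The 15 were chosen as the largest differences in these same libraries. Keeping a call therefore follows in large part from the choice.

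The genes with the largest falls are named from those with a mean of at least 5 FPKM in the higher genotype, so their WT level is set by the choice. Fmnl1, a formin that assembles actin filaments, was at 11.7 and 9.79 FPKM in WT and at 0.662 and 0.470 FPKM in Cxxc1-null libraries (-2.90 ± 0.34, limma adjusted p = 0.0017). Car2, which encodes carbonic anhydrase 2, was at 7.01 and 11.9 FPKM in WT and at 0.570 and 1.26 FPKM in Cxxc1-null (-2.43 ± 0.31). Paqr9, a gene of the progestin and adipoQ receptor family, was at 12.1 and 17.5 FPKM against 1.26 and 2.7 FPKM (-2.43 ± 0.31). For each of these the WT libraries held at least several times the Cxxc1-null level and the groups were far apart. Fmnl1 was under 1 FPKM in both Cxxc1-null libraries and entered only through the WT libraries. Its separation therefore follows in part from the choice of members. Agpat2, an acyltransferase of glycerolipid synthesis, fell from 16.1 and 15.6 FPKM to 1.54 and 3.28 FPKM, with limma adjusted p-values up to 0.0735 when 1 library was left out. Ptgds, a prostaglandin D synthase, fell from 31.3 and 36.7 FPKM to 3.82 and 8.77 FPKM, and its call and that of the prion-like gene Prnd were lost without any 1 of the 4 libraries.

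Further genes from the same choice were Phf13, Trim11, Herpud1, Spnb4 and Zkscan17. Phf13, whose PHD finger reads H3K4 methylation, was at 22.7 and 23.3 FPKM in WT and at 5.76 and 3.74 FPKM in Cxxc1-null libraries (-2.08 ± 0.30, limma adjusted p = 0.0037). Trim11, a ubiquitin ligase gene, was at 33.4 and 29.1 FPKM against 7.71 and 6.63 FPKM (-1.98 ± 0.23). Herpud1, a component of endoplasmic reticulum-associated degradation, was at 62.1 and 36.3 FPKM against 11.4 and 11.2 FPKM (-1.98 ± 0.31). The WT libraries differed by less than the genotypes did in all 3. Spnb4, a beta spectrin gene, fell from 12.8 and 11.5 FPKM to 3.11 and 1.70 FPKM (-1.98 ± 0.32), a call that was lost without Cxxc1-null replicate 2 at a limma adjusted p of 0.0515. The zinc finger gene Zkscan17 was at 34.9 and 54.1 FPKM in WT and at 7.75 and 9.04 FPKM in Cxxc1-null. Of the 15 named genes with the largest falls, 10 stayed called whichever library was left out.

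**Figure D2:**
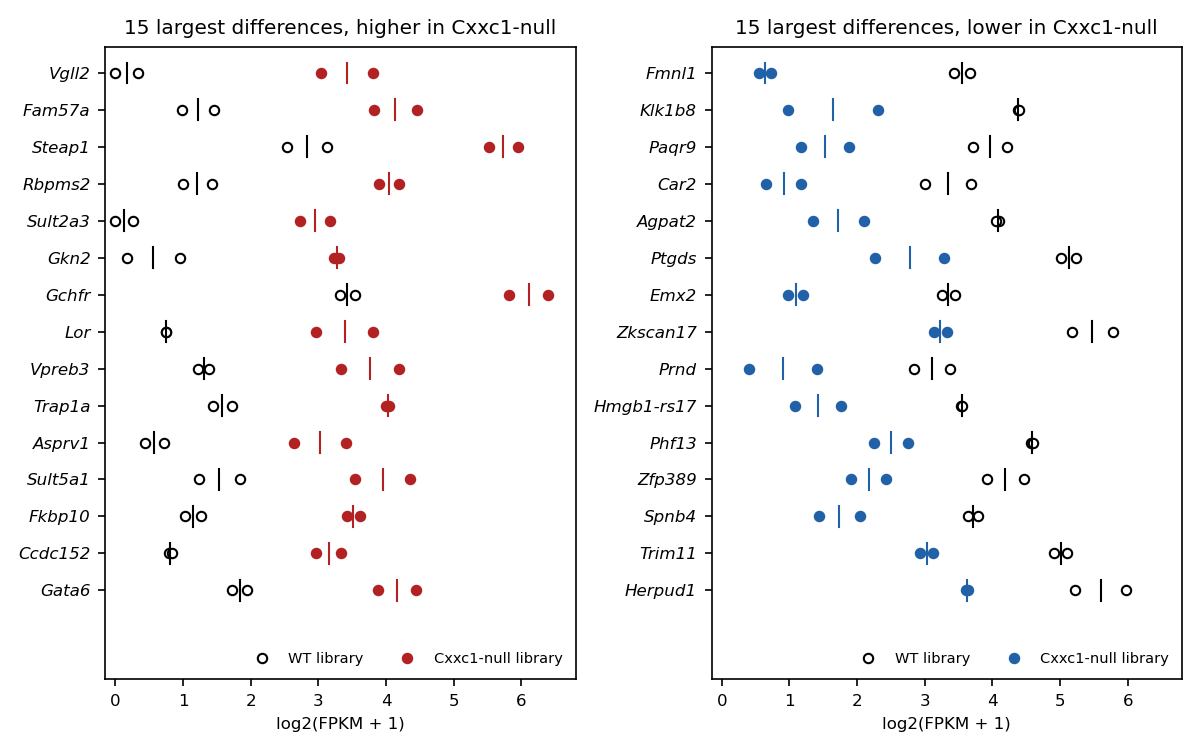
Levels of the 15 named genes with the largest rises (left) and falls (right), as log2(FPKM + 1) on the horizontal axis. Open circles are the 2 WT libraries, filled circles the 2 Cxxc1-null libraries, and vertical ticks the group means. The filled and open circles are separate for every gene shown, which was part of the choice. The genes were chosen for the size of their change and for a mean of at least 5 FPKM in the higher genotype, which sets the level from which each side starts.

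CXXC1 reads CpG dinucleotides, so the start regions of 3 genes with large changes are shown with each CG in capitals. The sequences are RefSeq promoter windows of GRCm38.p6, 250 bases before to 50 bases after the transcript start, on the gene's strand, 5′ to 3′; the deposited values were made on mm9. Fmnl1, which fell most among the characterised genes named for their falls, has its window at chr11:103170888-103171187 (+ strand). Rbpms2, an RNA-binding protein gene that rose from 1.68 and 0.991 FPKM to 17.2 and 13.9 FPKM, has its window at chr9:65630332-65630631 (+). Trap1a, an X-linked tumour antigen gene that rose from 2.29 and 1.72 FPKM to 15.1 and 15.6 FPKM, has its window at chrX:139333433-139333732 (+).
Fmnl1: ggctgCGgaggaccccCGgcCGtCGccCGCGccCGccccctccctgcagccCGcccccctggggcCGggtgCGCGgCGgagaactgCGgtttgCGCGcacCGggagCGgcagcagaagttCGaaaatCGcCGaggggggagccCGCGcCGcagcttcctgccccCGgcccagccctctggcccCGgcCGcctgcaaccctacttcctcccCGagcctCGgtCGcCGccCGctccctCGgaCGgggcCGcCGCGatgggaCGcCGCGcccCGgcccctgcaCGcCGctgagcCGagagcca
Rbpms2: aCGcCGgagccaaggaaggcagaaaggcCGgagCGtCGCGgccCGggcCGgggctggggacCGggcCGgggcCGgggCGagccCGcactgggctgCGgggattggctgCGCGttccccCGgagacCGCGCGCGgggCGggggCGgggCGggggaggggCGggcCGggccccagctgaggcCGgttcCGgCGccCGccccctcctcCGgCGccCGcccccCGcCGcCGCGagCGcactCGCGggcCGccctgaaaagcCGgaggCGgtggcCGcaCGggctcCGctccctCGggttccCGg
Trap1a: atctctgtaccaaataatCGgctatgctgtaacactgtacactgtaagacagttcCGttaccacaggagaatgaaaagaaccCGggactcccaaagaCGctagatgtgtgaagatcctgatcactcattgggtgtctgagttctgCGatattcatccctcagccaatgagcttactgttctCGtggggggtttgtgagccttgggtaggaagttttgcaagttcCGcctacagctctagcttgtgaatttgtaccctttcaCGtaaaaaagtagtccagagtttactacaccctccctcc
The Fmnl1 window holds 43 CG and is 79.3% G and C, the Rbpms2 window holds 48 CG at 83.3%, and the Trap1a window holds 8 CG at 46.7%. Fmnl1 fell, and Rbpms2 and Trap1a rose. With 3 genes chosen for large changes, these windows cannot show whether CpG content goes with a change or its direction. A window was found by symbol for 9400 of 11799 members and for 606 of the 782 that rose, which is under 80%, so a comparison of CpG content between the sets is void and no value is given.

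Among genes of the second division itself, few passed the test. The 6 lists of division genes together held 135 members, of which 12 fell (8.89%, beside 4.7% of all members) and 2 rose (1.48%, beside 6.63%). A negative difference was found in 81 (60.0%), beside 48.4% of all members. Cdk1, the kinase that drives entry into M phase, was at 53.5 and 39.0 FPKM in WT and at 17.4 and 16.1 FPKM in Cxxc1-null libraries (-1.40 ± 0.32, limma adjusted p = 0.024). The anaphase-promoting complex degrades securin and cyclin B at anaphase, with Cdc20 as activator and separase, encoded by Espl1, as the protease then set free. Cdc20 was at 201 and 188 FPKM in WT and at 98.2 and 62.1 FPKM in Cxxc1-null, Espl1 at 21.5 and 16.8 FPKM against 6.75 and 5.68 FPKM, and the subunit gene Cdc16 at 8.32 and 6.43 FPKM against 2.75 and 1.81 FPKM. These 3 fell among 19 members of their list (15.8%, beside 4.7% of all members), and no member rose. Cdk1 was the 1 call among 27 cyclins, CDKs and M-phase kinases (3.70%, beside 4.7% of all members). The medians of both lists, -0.04 and -0.07, turned positive when the libraries were given a common median (0.08 and 0.03), the first also without WT replicate 1. Each of these calls was lost in at least 2 of the 4 fits that left out a library; for Cdk1 the limma adjusted p reached 0.16 and for Cdc20 0.162.

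Lists of chromosome compaction and spindle genes had negative medians. Condensins and topoisomerase II shape mitotic and meiotic chromosomes, and their list had a median of -0.78 over 9 members, 7 of them negative, which was -0.49 without WT replicate 1. Top2a, the topoisomerase, was at 44.8 and 31.2 FPKM in WT and at 14.2 and 11.2 FPKM in Cxxc1-null (-1.50 ± 0.23, limma adjusted p = 0.0042), and held whichever library was left out. Ncaph, the kleisin of condensin I, was at 18.8 and 13.5 FPKM against 5.06 and 3.91 FPKM (-1.64 ± 0.28). The 2 falls were 22.2% of this list, beside 4.7% of all members. The 27 spindle, cytokinesis and centriole genes had a median of -0.36 with 23 negative, against 0.02 over all members. This median was -0.62 without WT replicate 2, -0.58 without Cxxc1-null replicate 1 and -0.22 without Cxxc1-null replicate 2. Kif20b, a kinesin of cytokinesis, at 21.2 and 12.7 FPKM in WT and at 6.46 and 5.65 FPKM in Cxxc1-null, Stil, a centriole duplication factor, at 15.6 and 11.3 FPKM against 6.87 and 5.09 FPKM, and the chromokinesin gene Kif4 on the X fell, and no member rose. The 3 falls were 11.1% of this list, beside 4.7% of all members, of which 6.63% rose. Of 38 kinetochore, checkpoint and passenger genes, Cdca8, which encodes borealin, fell from 98.8 and 82.1 FPKM to 41.7 and 45.3 FPKM, and the checkpoint kinase gene Bub1b from 26.1 and 18.1 FPKM to 12.3 and 7.58 FPKM, with a list median of -0.05 that was 0.06 with a common median. The 2 falls were 5.26% of this list, near the 4.7% of all members. Kif4 held whichever library was left out; Kif20b, Stil, Cdca8, Bub1b and Ncaph each lost the call in 2 or more of the 4 such fits.

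A few genes of cohesin and of DNA replication passed the test. Of 17 cohesin genes, the acetyltransferase gene Esco2 and the shugoshin gene Sgol1 rose (11.8%, beside 6.63% of all members). Esco2 was at 0.426 and 0.397 FPKM in WT and at 2.17 and 2.46 FPKM in Cxxc1-null. It entered only through the Cxxc1-null libraries, so its separation follows in part from the choice of members. Nipbl, the cohesin loader gene, fell from 111 and 85.9 FPKM to 49.8 and 49.9 FPKM, the only fall in the list (5.88%, beside 4.7% of all members). All 3 calls were lost without WT replicate 1 or Cxxc1-null replicates 1 or 2. Of 26 DNA replication factors 4 rose (15.4%, beside 6.63% of all members) and none fell (4.7% of all members fell), with a median of 0.43 and 19 positive. Rfc3, a clamp loader subunit, was at 23.5 and 21.7 FPKM in WT and at 59.9 and 57.3 FPKM in Cxxc1-null (1.34 ± 0.18, limma adjusted p = 0.0029). Orc6, of the origin recognition complex, was at 6.19 and 5.32 FPKM against 15.7 and 19.9 FPKM (1.47 ± 0.23). Both held whichever library was left out, whereas Gins4 (51.2 and 71.5 against 107 and 138 FPKM) and Orc1 did not. The Rfc3 libraries of each genotype lay within a few FPKM of each other.

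Many division genes share promoter elements, the cell cycle homology region TTTGAA, a site of the DREAM and MuvB complexes, and CCAAT boxes, which NF-Y binds. The windows of 4 division genes that fell are shown with every TTTGAA and CCAAT, on either strand, in capitals, so that the elements appear as TTTGAA or TTCAAA and as CCAAT or ATTGG. They are at chr10:69352863-69353162 (-) for Cdk1, chr4:118437294-118437593 (-) for Cdc20, chr11:99024140-99024439 (-) for Top2a and chr15:102296043-102296342 (+) for Espl1 in GRCm38.p6.
Cdk1: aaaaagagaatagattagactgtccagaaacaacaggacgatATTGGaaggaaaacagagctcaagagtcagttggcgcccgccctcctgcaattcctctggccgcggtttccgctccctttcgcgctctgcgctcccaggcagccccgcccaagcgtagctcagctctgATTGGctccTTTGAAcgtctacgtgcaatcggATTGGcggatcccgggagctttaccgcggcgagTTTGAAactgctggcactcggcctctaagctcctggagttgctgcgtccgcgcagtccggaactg
Cdc20: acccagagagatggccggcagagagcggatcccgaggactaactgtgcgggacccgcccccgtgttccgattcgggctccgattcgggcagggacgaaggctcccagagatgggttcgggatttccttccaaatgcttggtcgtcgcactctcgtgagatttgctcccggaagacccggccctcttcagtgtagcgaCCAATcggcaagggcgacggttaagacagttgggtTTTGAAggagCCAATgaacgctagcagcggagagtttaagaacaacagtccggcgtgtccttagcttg
Top2a: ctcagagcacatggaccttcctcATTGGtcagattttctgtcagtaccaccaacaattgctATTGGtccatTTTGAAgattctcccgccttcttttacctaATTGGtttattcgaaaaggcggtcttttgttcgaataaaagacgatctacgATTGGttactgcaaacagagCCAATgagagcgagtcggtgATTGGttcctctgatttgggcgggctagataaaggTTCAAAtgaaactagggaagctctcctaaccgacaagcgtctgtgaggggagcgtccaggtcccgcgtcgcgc
Espl1: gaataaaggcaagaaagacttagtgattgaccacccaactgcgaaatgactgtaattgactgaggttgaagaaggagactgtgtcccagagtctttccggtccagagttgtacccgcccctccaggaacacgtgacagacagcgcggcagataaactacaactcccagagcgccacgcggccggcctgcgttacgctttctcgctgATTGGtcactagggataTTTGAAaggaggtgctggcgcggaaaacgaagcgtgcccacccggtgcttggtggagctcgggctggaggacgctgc
Of the 12 division genes that fell, 11 had a window, and 8 of these held TTTGAA (72.7%) and 8 held CCAAT (72.7%). Among division genes that were not called, 41 of 100 windows held TTTGAA (41.0%) and 58 held CCAAT (58.0%). Over the 27025 windows of this length in the table, 18.1% held TTTGAA and 37.9% held CCAAT. A window was found for 436 of the 555 members called lower, and 13.5% of these held TTTGAA and 36.9% held CCAAT. Of the 9400 windows of all members 13.2% held TTTGAA and 39.9% held CCAAT. The first listed window was used for the 1783 members with more than 1. These shares are a description of letters in the windows, and with 11 windows they carry no test.

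The products of spermiogenesis were lower in value but did not pass the test. Prm1, a protamine gene, was at 2213 and 3794 FPKM in WT and at 337 and 1000 FPKM in Cxxc1-null libraries (-2.32 ± 0.78, limma adjusted p = 0.091). Tnp1, a transition protein gene, was at 1136 and 1803 FPKM in WT and at 254 and 780 FPKM in Cxxc1-null (-1.68 ± 0.74, limma adjusted p = 0.18). For both the genotypes did not overlap, and Cxxc1-null replicate 1 was the lowest library. The list of 14 transition protein, protamine and testis histone genes had a median of -0.73, with 13 negative and 0 called by limma, and 7 were at an unadjusted p under 0.05, all lower in value; 8 of the 14 had both Cxxc1-null libraries below both WT libraries, beside 27% of all members. The median was -0.43 without Cxxc1-null replicate 1 and -1.36 without Cxxc1-null replicate 2. The summed FPKM of this list was 7630 and 11188 in WT and 2003 and 4941 in Cxxc1-null libraries. The 16 markers of round and elongating spermatids had a median of -0.33 with 13 negative and 0 called, 5 of them at an unadjusted p under 0.05 in limma, and the median was -0.07 without Cxxc1-null replicate 1 and -0.79 without Cxxc1-null replicate 2. The 22 sperm energy and ion transport genes had a median of -0.19 with 15 negative, 1 lower call and no higher one, and the median was -0.12 without WT replicate 1, -0.09 without Cxxc1-null replicate 1 and -0.12 without Cxxc1-null replicate 2. The 33 sperm tail and axoneme genes had a median of -0.12, which was 0.00 with a common median, and the 27 acrosome and fertilisation genes 0.06, whose sign changed in 3 alternatives. Adam1b, a sperm surface protease family gene, was the 1 called acrosome gene (102 and 77.8 against 49.2 and 40.5 FPKM), and its call was lost without WT replicate 1 or Cxxc1-null replicate 2. Mybl1 (A-MYB), the transcription factor that drives pachytene and piRNA precursor genes, fell from 9.11 and 7.46 FPKM to 3.36 and 3.59 FPKM, a call lost without any 1 library.

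The called members with the largest losses in FPKM included Prps1l1, Pxt1 and Ggnbp2. Prps1l1, a testis form of phosphoribosyl pyrophosphate synthetase, was at 389 and 371 FPKM in WT and at 127 and 145 FPKM in Cxxc1-null libraries (-1.48 ± 0.24, limma adjusted p = 0.006). Pxt1, a testis peroxisomal gene, was at 308 and 364 FPKM against 142 and 137 FPKM (-1.26 ± 0.19), and Ggnbp2, a gametogenetin-binding protein gene, at 341 and 318 FPKM against 135 and 136 FPKM (-1.27 ± 0.17). In each the Cxxc1-null libraries lay close together and far below the WT libraries. The uncharacterised 1700010B08Rik, with 691 and 776 FPKM in WT and at 289 and 320 FPKM in Cxxc1-null, had the largest loss in FPKM among called members; Prm1, which was not called, lost more. All 4 held whichever library was left out. Among RIKEN clones of adult testis, the series named like 1700010B08Rik included 22 members that fell and 5 that rose of 365. Of the 496 members named like 4921530L21Rik, 31 fell and 15 rose. The shares that fell were 6.03% and 6.25%, beside 4.7% of all members, and those that rose 1.37% and 3.02%, beside 6.63%.

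The lists of writers and readers of H3K4 methylation are short, and every call in the 4 lists below was lower. The calls were 12.5% of SETD1 complex, 33.3% of MLL family, 20.0% of H3K4 demethylase and 20.0% of other CXXC-domain members. Of all members 4.7% were lower and 6.63% higher. In lists this short 1 call makes a large share. Of 8 SETD1 complex genes only Cxxc1 was called, and the other subunits had values on both sides of 0, such as Setd1a at 1.92 and 1.77 FPKM in WT and at 0.826 and 1.17 FPKM in Cxxc1-null (-0.51 ± 0.29, limma adjusted p = 0.30) and Wdr5 at 0.17 ± 0.23. Of 6 MLL family genes, Mll5 fell from 7.87 and 7.52 FPKM to 3.41 and 3.29 FPKM, and Psip1, a chromatin tether of MLL complexes, from 152 and 119 FPKM to 76.6 and 86.3 FPKM, with a list median of -0.70. Among H3K4 demethylases Kdm5b fell from 35.5 and 29.0 FPKM to 17.8 and 20.5 FPKM. Among other CXXC-domain genes Kdm2b fell from 21.8 and 20.0 FPKM to 8.45 and 7.97 FPKM, a list with a median of -0.71 over 5 members. The calls of Mll5, Psip1, Kdm5b and Kdm2b were each lost without any 1 of the 4 libraries. The H3K9 methyltransferase gene Suv39h1 on the X fell from 2.78 and 1.97 FPKM to 0.812 and 0.603 FPKM. It entered only through the WT libraries, so its separation follows in part from the choice of members. Uhrf2, a methylcytosine-binding ubiquitin ligase gene, rose from 4.04 and 2.74 FPKM to 10.5 and 7.06 FPKM. The list of 14 other histone and DNA methylation enzymes held 1 rise and 1 fall (7.14% each, beside 6.63% and 4.7% of all members). The calls of Suv39h1 and Uhrf2 were each lost in 2 of the 4 fits.

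Germ-cell RNA-binding genes held 3 rises (14.3%, beside 6.63% of all members) and no fall (beside 4.7%) among 21 members, 11 of them positive and 10 negative. Dazl, a translation regulator needed in germ cells, was at 4.27 and 3.88 FPKM in WT and at 14.3 and 13.4 FPKM in Cxxc1-null libraries (1.55 ± 0.37, limma adjusted p = 0.028). Celf1, an RNA-binding regulator of splicing and translation, was at 4.20 and 4.03 FPKM against 12.5 and 9.58 FPKM (1.22 ± 0.20). Rbpms2 was the third. Celf1 and Rbpms2 held whichever library was left out and Dazl did not in any of the 4 fits, although its libraries of each genotype lay within 1 FPKM. Of 17 piRNA pathway genes 1 rose and 1 fell (5.88% each), near the 6.63% and 4.7% of all members. Tdrkh rose from 8.04 and 8.22 FPKM to 14.6 and 14.6 FPKM, and Tdrd5 fell from 11.0 and 8.20 FPKM to 4.38 and 3.72 FPKM. Both encode Tudor proteins, and their calls were lost in 4 and 3 of the fits that left out 1 library.

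Lists of mitochondrial, ribosomal and proteasome genes had positive medians, with few members past the threshold. The median differences were 0.49 over 37 complex I genes, 0.37 over 13 of complexes II and III, 0.36 over 16 of complex IV and 0.65 over 17 of complex V, against 0.02 over all members. Complex I had 3 calls, all higher (8.11%, beside 6.63% of all members). Ndufb11 on the X was 1 of them (5.97 and 4.63 FPKM in WT against 16.1 and 14.4 FPKM in Cxxc1-null). The other complexes had 0 by limma; at an unadjusted p under 0.05 there were 3 genes of complexes II and III, 2 of them higher in value, 3 of complex IV and 7 of complex V, all higher. The 76 mitochondrial ribosomal genes had a median of 0.34, with 8 higher (10.5%, beside 6.63% of all members) and 0 lower (beside 4.7%). Mrpl14 was at 6.60 and 6.32 FPKM in WT and at 16.9 and 27.0 FPKM in Cxxc1-null (1.58 ± 0.27, limma adjusted p = 0.0079), and Mrpl36 at 52.1 and 56.7 FPKM against 112 and 137 FPKM. Of 80 cytoplasmic ribosomal genes 72 were positive, with a median of 0.48 and 0 called by limma, and 17 were at an unadjusted p under 0.05, all higher in value. Of 37 proteasome genes 33 were positive with a median of 0.47. Psmd10, Psmd11 and Psmb4 rose (8.11%, beside 6.63% of all members). Psmd11 was at 99.6 and 97.6 FPKM in WT and at 190 and 165 FPKM in Cxxc1-null. The share with both Cxxc1-null libraries above both WT libraries was 24 of 37 for complex I, 33 of 80 for cytoplasmic ribosomal and 26 of 37 for proteasome genes, beside 30.6% of all members. The 3 complex I and 3 proteasome calls were each lost in all 4 fits that left out 1 library, and the calls of Mrpl14 and Mrpl36 were lost without Cxxc1-null replicate 2, that of Mrpl36 also without WT replicate 1. Without Cxxc1-null replicate 2 the medians were 0.29 for complex I, 0.19 for complexes II and III, 0.31 for complex V, 0.11 for mitochondrial and 0.13 for cytoplasmic ribosomal genes. Without Cxxc1-null replicate 1 they were 0.58 for complex IV and 0.80 for cytoplasmic ribosomal genes.

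**Figure D3:**
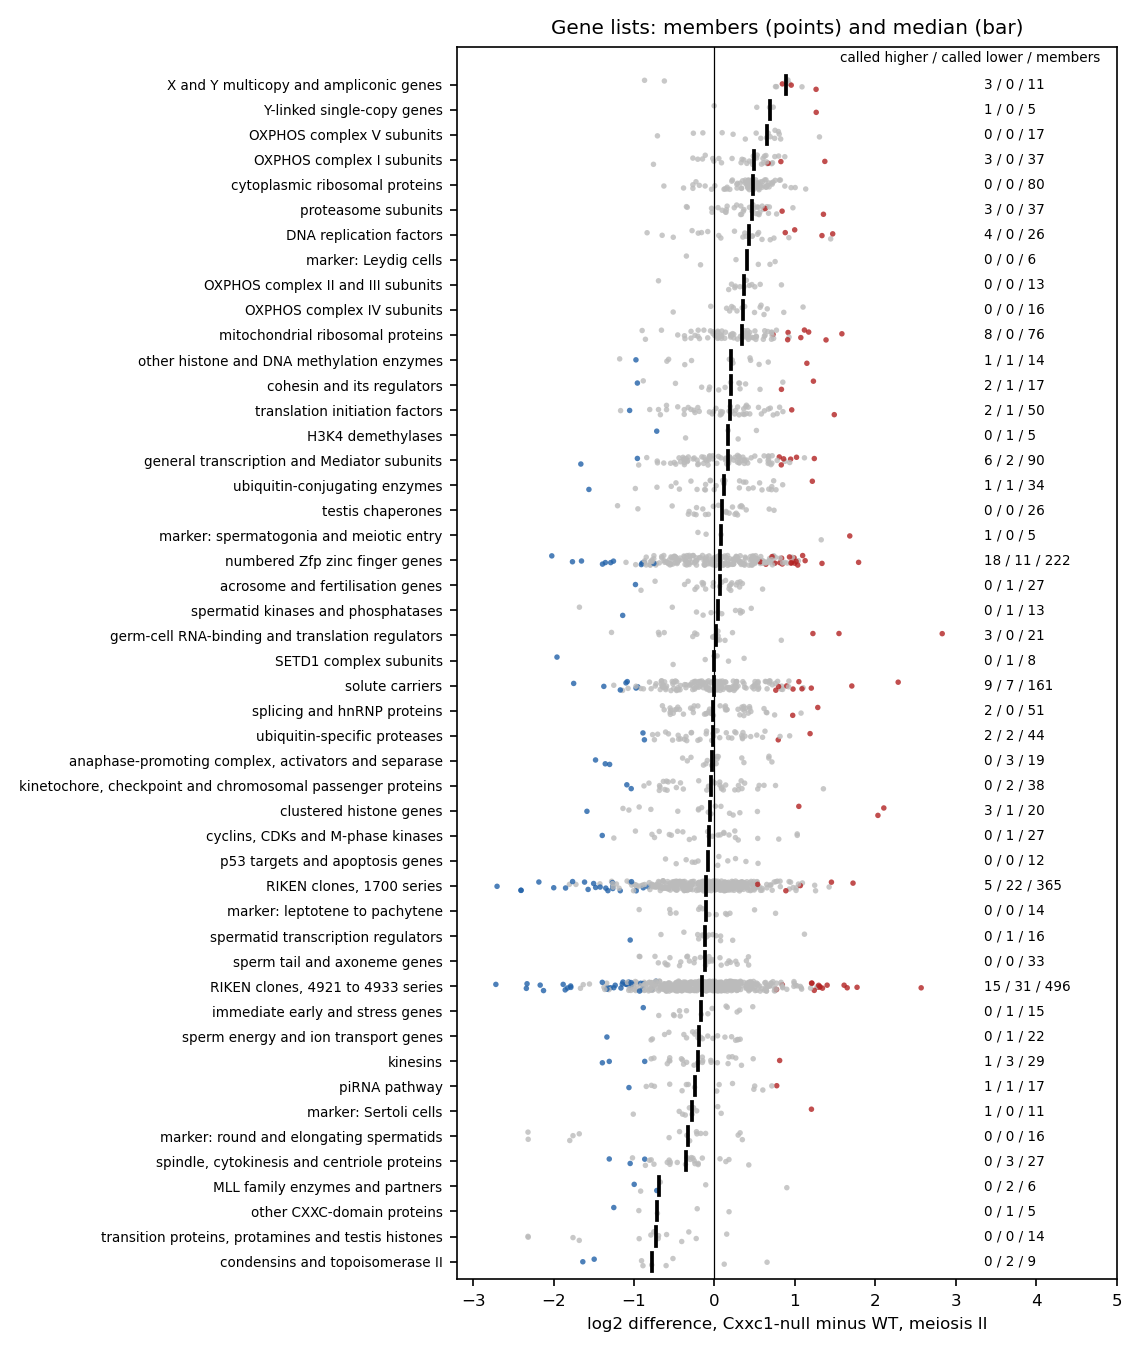
Gene lists with at least 5 members, ordered by the median log2 difference, Cxxc1-null minus WT (horizontal axis). Points are members, red when called higher, blue when called lower and grey when not called, and black bars are medians; the numbers at the right count calls and members. Condensins and topoisomerase II are lowest at -0.78, and the X and Y multicopy genes highest at 0.89.

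Levels of X-linked members were more often higher than lower in Cxxc1-null cells. Of 392 X-linked members, 284 (72.4%) had a positive difference and the median was 0.48, against 50.9% and 0.01 over 11313 autosomal members. Both Cxxc1-null libraries lay above both WT libraries in 50.3% of X-linked and 30.0% of autosomal members. Limma called 59 X-linked members higher (15.1%) and 10 lower (2.55%), against 6.32% and 4.79% of autosomal members. Among members above 1 FPKM in all 4 libraries the median was 0.50 for 317 X-linked and 0.00 for 9762 autosomal genes, with 11.7% and 4.32% called higher. The X median was 0.44 in pachytene and 0.37 in diplotene cells. It stayed positive, from 0.28 (without Cxxc1-null replicate 2) to 0.65, in all 13 alternatives. The order of the shares called higher was reversed with 1 of them: with a pseudocount of 0.1 the calls were 8 X-linked members (2.04%) against 4.57% of autosomal members. In the fit of the 4 libraries alone the shares were close, 1.28% against 1.21%. Without WT replicate 1 and 2 and Cxxc1-null replicate 1 and 2 the share was 4.85%, 3.32%, 5.87% and 4.34% on the X, against 2.36%, 2.46%, 2.80% and 2.17% on the autosomes.

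The X-linked members that rose included germ-cell antigen genes and general factors. Trap1a, shown above, was among them. Magea8, of the melanoma antigen family, was at 0.348 and 0.278 FPKM in WT and at 2.32 and 1.99 FPKM in Cxxc1-null libraries (1.26 ± 0.18, limma adjusted p = 0.0032), and Magea2 and Magea10 rose too, from levels below 0.4 FPKM. All 3 passed the 1 FPKM filter only through the Cxxc1-null libraries. They are among 11 X and Y multicopy members; near-identical copies share reads, so their separate values are uncertain. Rhox13, a homeobox gene of germ cells, was at 0.888 and 1.46 FPKM in WT and at 6.96 and 5.02 FPKM in Cxxc1-null; it is also 1 of the spermatogonial markers, which summed to 15.9 and 14.8 FPKM in WT and at 23.9 and 26.1 FPKM in Cxxc1-null, and their part was not tested. Usp26, a deubiquitinase gene of the testis, was at 1.37 and 1.53 FPKM against 2.66 and 3.92 FPKM. The Mediator subunit gene Med14 was at 1.13 and 0.876 FPKM against 2.57 and 2.43 FPKM. On the Y, 5 of 6 members were positive, and Zfy2, a zinc finger gene with roles in meiosis, rose from 2.69 and 2.22 FPKM to 6.60 and 8.04 FPKM (1.26 ± 0.25, limma adjusted p = 0.014); Eif2s3y was at 46.5 and 37.0 FPKM in WT and at 68.1 and 70.8 FPKM in Cxxc1-null (0.73 ± 0.24, adjusted p = 0.081). Magea8 and Trap1a held whichever library was left out, and Rhox13, Usp26, Med14, Zfy2, Magea2 and Magea10 did not.

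**Figure D4:**
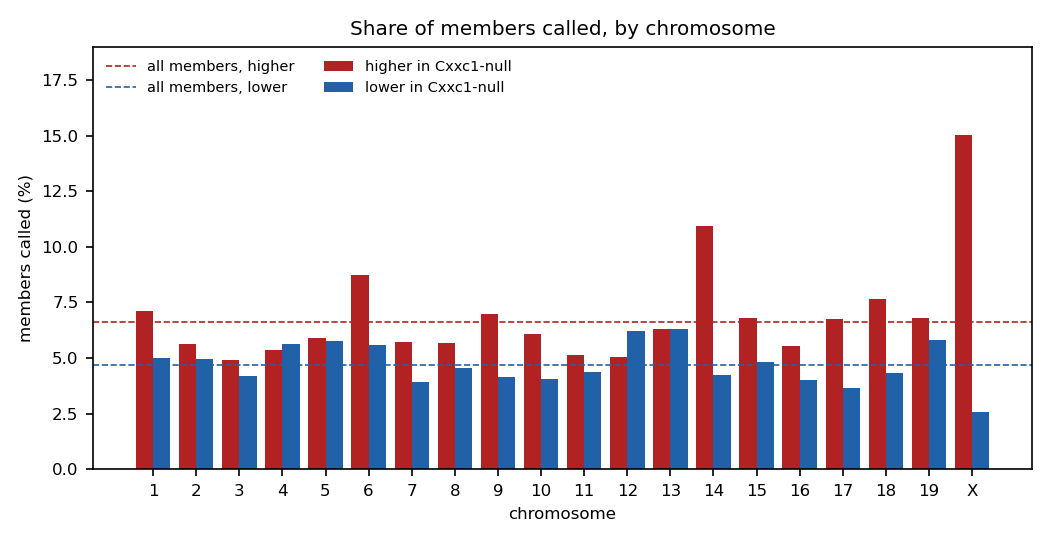
Bars give the percentage of members called higher (red) and lower (blue) in Cxxc1-null meiosis II cells for each autosome and the X, and dashed lines the same over all members, 6.63% and 4.7%. The X has the highest red bar, 15.1%, and the lowest blue bar, 2.55%. Chromosome 14 follows with 11.0% higher. The X share called lower was above the autosomal share in some alternatives.

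The genotype difference in meiosis II differed from that at an earlier stage for 4 members, the same 4 against pachytene and against diplotene. In each comparison 2 lay above (0.017% of members) and 2 below (0.017%). Slc25a43, an X-linked mitochondrial carrier gene, was at 3.56 and 4.42 FPKM in WT and at 0.614 and 0.352 FPKM in Cxxc1-null meiosis II libraries, and was listed at 0 in the 8 pachytene and diplotene libraries except WT diplotene replicate 2, at 0.0728 FPKM. Its difference of -1.75 ± 0.15 lay below that in pachytene and in diplotene (limma adjusted p = 0.022 and 0.017 for the difference between stages). Defb5, a beta-defensin gene, had a listed value of 0 in each WT library and was at 2.71 and 3.11 FPKM in Cxxc1-null. The microRNA genes Mir92b, at 96.5 and 180 FPKM in WT and at a listed 0 in Cxxc1-null, and Mir135b, at a listed 0 in WT and at 43.8 and 101 FPKM in Cxxc1-null, completed the group. Defb5, Mir92b and Mir135b were listed at 0 in all 8 pachytene and diplotene libraries, so their stage differences rest on meiosis II alone and no fold is given. All 4 passed the 1 FPKM filter only through the genotype in which they are high, and groups listed at 0 add no spread to the estimate shared by the 6 groups, which lowers these p-values; they support nothing further.

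The microRNA genes are shown by their mature RefSeq sequences, since a hairpin locus is short and its FPKM is high from few fragments; the seed, bases 2 to 8, is in capitals. Mir425, Mir3063 and Mir3473d are added because they too had a listed 0 in each Cxxc1-null library and fell in limma, from 85.4 and 238, 264 and 69.0, and 110 and 204 FPKM. These 3 passed the 1 FPKM filter only through the WT libraries, so their fall follows in part from the choice of members. Groups listed at 0 add no spread, so these calls support nothing further.
mmu-miR-92b-3p: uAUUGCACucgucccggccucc
mmu-miR-92b-5p: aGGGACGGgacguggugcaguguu
mmu-miR-135b-3p: aUGUAGGGcuaaaagccauggg
mmu-miR-425-5p: aAUGACACgaucacucccguuga
mmu-miR-425-3p: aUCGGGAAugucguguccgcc
mmu-miR-3063-5p: uGGAGAUCagguuugcacacu
mmu-miR-3063-3p: uGAGGAAUccugaucucucgcc
mmu-miR-3473d: cCACUGAGccacuuuccagcccuu
No 2 of these 8 mature sequences share a seed. The libraries were primed at poly(A) tails, which mature microRNAs lack, so the values are of longer transcripts over these loci and say nothing of the mature forms. The calls of Mir425 and Mir3473d were lost without any 1 of the 4 libraries and that of Mir3063 in 3 such fits, while Mir92b and Mir135b held in all 4.

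The members called in meiosis II were compared with their values at the earlier stages, which share no library with the meiosis II comparison but may share animals. Of the 782 that were higher in meiosis II, 742 (94.9%) had a positive difference in diplotene and 620 (79.3%) in pachytene, beside 61.9% and 55.7% of all members. Of the 555 that were lower, 445 (80.2%) were negative in diplotene and 429 (77.3%) in pachytene, beside 37.9% and 44.1%. The median difference of the higher set was 0.26 in pachytene, 0.50 in diplotene and 1.07 in meiosis II, and that of the lower set -0.22, -0.31 and -1.13. The sets were chosen on the meiosis II values, so the larger size there is given by the choice. Few passed the test earlier, in these sets or among all 11799 members. In pachytene and diplotene 30 and 69 of the higher set were called higher, out of 43 and 84 such calls among all members. Of the lower set 1 and 10 were called lower, out of 2 and 10 among all members. Cdk1, at -0.07 in pachytene and -0.11 in diplotene, and Rfc3, at 0.35 and 0.42, show members with small earlier values, and 2610016A17Rik, at 2.81 and 2.93 before 4.41 in meiosis II, a member with large ones.

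**Figure D5:**
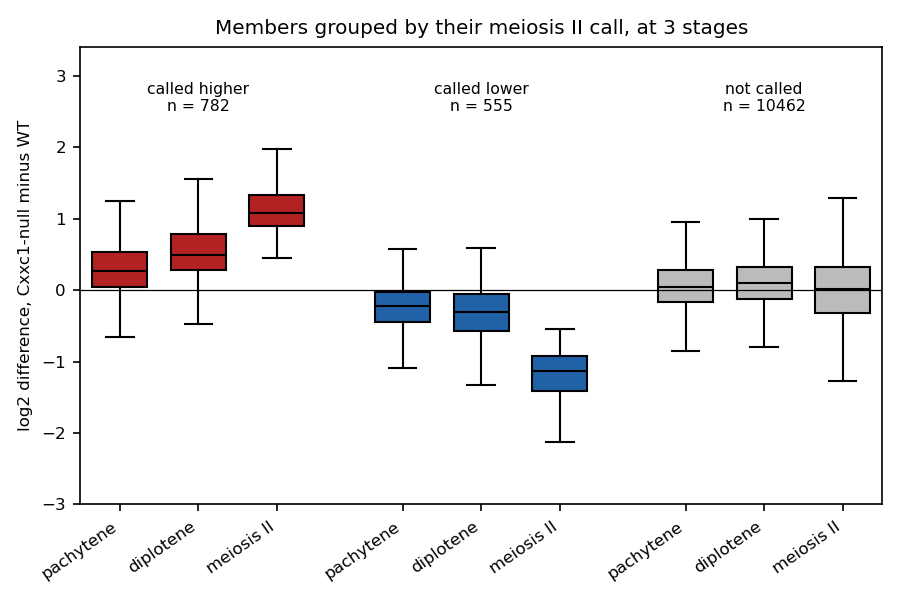
Log2 differences, Cxxc1-null minus WT, in pachytene, diplotene and meiosis II cells for members grouped by their meiosis II call. Boxes span the quartiles with the median as a line, whiskers reach 1.5 times that span, and points beyond are left out. The medians of the 782 higher members are 0.26, 0.50 and 1.07 and those of the 555 lower members -0.22, -0.31 and -1.13; the meiosis II boxes are set by the choice of groups.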

How the data were processed

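RNA was measured in 12 libraries, 2 for each of 2 genotypes at 3 stages, of which the 4 meiosis II libraries are described; 8 H3K4me3 ChIP libraries were not analysed here. The authors deposited 1 table of FPKM values for 23235 genes. The mm9 build, TopHat2 2.1.1 and Cufflinks 2.2.1 are named, per the submitters' processing notes, without saying what each did. Fragment totals are not stated there either, so the depth is unknown, no count test was run, and an exact 0 is only called listed at 0. The labels describe no strand, so overlapping and antisense genes are uncertain.

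Values were transformed to log2(FPKM + 1), which understates changes of low genes. A linear model with 6 group means was fitted to all 12 libraries, in limma 3.58.1 and R 4.3.3, with 6 residual degrees of freedom and a mean-variance trend. Contrasts were Cxxc1-null minus WT in meiosis II and its difference from the same contrast in pachytene and in diplotene. The model was tested on simulated data. The members, the gene lists and the rules were chosen with earlier results of these data known. The genes named are the 15 with the largest rises and the 15 with the largest falls among called, characterised genes. These had no overlap between genotypes and a mean of at least 5 FPKM in the higher genotype. Also named are the 10 smallest p-values and the 10 largest changes in FPKM each way. Up to 4 genes with the smallest p per list and the 5 smallest p-values in each stage contrast were added. Some are left out for length. Clu, Tnp1 and Wdr5 were named for their lists. Chromosomes were found by symbol for 11711 members in a RefSeq table of GRCm38.p6, and promoters and microRNA sequences come from the same build. Alternatives were other pseudocounts (0.1), filters (5 FPKM, none, members only), scalings, no short RNA genes, each library left out, a replicate block and a fit of 4 libraries.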

Additional observations from a re-analysis of the deposited data

Results flagged for a closer look

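The genotype difference of 4 members in meiosis II differed from that in both earlier stages, by a limma test of the difference itself. Against pachytene the adjusted p-values were 2.31e-05 for Mir92b, 0.000309 for Mir135b, 0.00156 for Defb5 and 0.0222 for Slc25a43. Against diplotene they were 5.77e-06, 0.000124, 0.00078 and 0.0165 in the same order. Mir92b and Slc25a43 were lower and Mir135b and Defb5 higher in both Cxxc1-null meiosis II libraries. Mir92b, Mir135b and Defb5 were listed at 0 in all 8 pachytene and diplotene libraries, and Slc25a43 in 7 of the 8. Groups at 0 add no spread to the estimate shared by the 6 groups, which lowers these p-values. All 4 also passed the 1 FPKM filter only through the genotype in which they are high, so the p-values are given as values and support nothing further.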

How the results depend on the processing

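The 1337 calls (782 higher, 555 lower) became 732 (368 and 364) among genes above 5 FPKM and 218 (143 and 75) in a fit of the 4 meiosis II libraries alone; fewer genes were tested in the first and 2 residual degrees of freedom were left in the second. Leaving out 1 meiosis II library gave 400 to 582 calls, 264 to 343 higher and 113 to 289 lower, with 50.3% to 71.8% of them higher, and a common median 69.8%. With a pseudocount of 0.1, 886 of the 1337 stayed called; of the genes named, Agpat2, Kdm5b, Kif4, Magea2, Magea10, Med14, Ndufb11, Orc1, Prnd, Psip1, Ptgds, Rhox13, Slc25a14, Suv39h1, Usp26 and Zfy2 did not. Every called member kept its direction in each of the 13 alternatives that tested it. Only the other scalings could have changed a direction, because no called member overlapped between genotypes. The 4 calls against pachytene became 2 with the 0.1 pseudocount, 24 with no filter, 2 for genes over 5 FPKM, 14 after quantile normalization, 10 with a common median, 2 without short RNA genes and 3 to 10 with a library left out. The 4 against diplotene became 2 above 5 FPKM, 15 without a filter, 2 without short RNA genes and 4 to 8 with a library left out. The cause of these changes was not tested. Same-numbered libraries did not deviate together at every stage (r = -0.07, 0.32 and 0.11 across genes in pachytene, diplotene and meiosis II). Each stage gives a single comparison, so these values cannot decide whether same-numbered libraries share an animal or a batch. The main fit did not pair them. With a replicate block the calls were 1376, of which 1106 were among the 1337. Depth is unknown, so low values cannot be given an error of their own.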

Other observations

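On chromosome 14, 49 of 447 members rose (11.0%, beside 6.63% of all members) and 19 fell (4.25%, beside 4.7%). This pattern was noticed after the values were seen. Predicted genes with Gm numbers made up 23 of these members, and 10 of them rose, with a median difference of 0.92, against 25 of 328 Gm-numbered members elsewhere, with a median of 0.02. Gm5797, at 317 and 489 FPKM in WT and 881 and 1291 FPKM in Cxxc1-null libraries, and Gm5458, at 303 and 419 against 772 and 1102 FPKM, showed the largest gains in FPKM of all called members. Predicted genes of such clusters can be near-identical copies that share reads, so these values are uncertain as separate genes. Without the Gm-numbered genes, 39 of 424 members of chromosome 14 rose (9.20%).

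The beta-defensin gene Defb41 was at 2.44 and 2.27 FPKM in WT and at 11.5 and 14.2 FPKM in Cxxc1-null meiosis II libraries (2.04 ± 0.22, limma adjusted p = 0.0015), with differences of 2.23 in pachytene and 1.55 in diplotene. Of clustered histone genes, Hist1h4h (7.59 and 3.90 FPKM in WT against 22.6 and 28.8 FPKM in Cxxc1-null), Hist1h2bb and Hist2h3c2 rose and the testis gene Hist1h2aa fell among 20 members, and of these Hist1h4h held whichever library was left out. Of 222 numbered Zfp zinc finger members 18 rose (8.11%) and 11 fell (4.95%), and of 161 solute carriers 9 rose (5.59%) and 7 fell (4.35%), shares near the 6.63% and 4.7% of all members. No member of the p53 target list (12) or of the testis chaperones (26) was called by limma; at an unadjusted p under 0.05 there were 2 and 3.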
